A study of Homo sapiens with 6 samples.

Results

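The genes described here are the chemokines, interleukins and interleukin receptors of A431, an established line grown from a human epidermoid carcinoma and known for its abundant EGFR, the receptor of epidermal growth factor (EGF). They were chosen by name, with earlier results of these data known, as genes whose symbol begins with IL, CXCL or CCL and a digit. A set of 12 such genes was left out (CXCL9, CXCL10, CXCL11, IL1A, IL1B, IL1RL1, IL1RN, IL1R1, IL1R2, IL1RAP, IL33 and IL36G), so that 106 of 118 matching genes remained, out of 17687 genes with a named probe set. Each of the 106 had a single probe set. They comprised 32 chemokines, 36 interleukins and 38 receptors or binding proteins. RNA came from 6 samples with 1 array each, in 3 groups of 2. All cells had been grown with 10% serum and then starved for 24 h. Cells of the first group had no further treatment and are the control. Those of the second had EGF at 100 ng/ml, and those of the third had this dose together with gefitinib, which blocks the kinase of EGFR, at 10 µM. The labels give a harvest at 30 min and do not state when gefitinib was added. The paired arrays of each group are named as biological replicates there, but separate cultures are not mentioned. The p-values therefore reflect the spread of these 6 samples alone, and that spread could be technical.

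Interleukins and chemokines are small secreted proteins that act through surface receptors. Most interleukin receptors are pairs of chains that signal through JAK kinases and STAT factors, and one chain is often shared by several ligands, as the common gamma chain IL2RG is by the ligands of IL7R, IL4R and IL15RA. The receptors of the IL1 and IL17 families instead act through adaptor proteins that lead to NF-kB and the MAP kinases. Chemokines bind G protein-coupled receptors and direct the movement of leukocytes. In skin, keratinocytes both secrete such factors and respond to cytokines of the IL4, IL17, IL20 and IL6 groups.

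The arrays were alike in level, with medians over 21448 transcript probe sets between 6.07 and 6.16 on the log2 scale. A probe set was taken as measured above background on an array when its signal there exceeded a limit set at the 95th percentile of the negative controls (7.14 to 7.65). The epithelial markers EGFR, KRT5, KRT14, CDH1 and EPCAM lay above this limit on every array, and KRT17, KRT6A and TP63 were not matched to a probe set. Of 11 measured leukocyte markers, 10 lay at or below the limit on all 6 arrays, among them PTPRC, CD3D, CD3E and MS4A1. CD68, a lysosomal protein that is not confined to leukocytes, lay above it on all 6. The summed level of that list, on the log2 scale, was 12.84 to 12.87 in control, 12.91 to 13.15 with EGF and 12.38 to 12.77 with EGF plus gefitinib. Limma called 0 of the 11 for EGF against control (beside 11.9% of all transcript probe sets), with 1 at an unadjusted p under 0.05. It called 0 for EGF plus gefitinib against EGF (beside 18.7%), with 1 at that level. For EGF plus gefitinib against control it called 0 (beside 3.89%), with 2 at that level. Of 5 measured fibroblast markers 2, LUM and DCN, were called lower with EGF (−1.34 ± 0.26 and −1.21 ± 0.19 in log2), with DCN at or below the limit on every array. COL1A1, COL1A2 and PDGFRB were not called in any comparison, and COL3A1 was not matched to a probe set. The call of LUM was lost without control 1, control 2, EGF 1 or EGF 2, and that of DCN without control 2 or EGF 2. EGFR was called higher with EGF plus gefitinib than with EGF (0.87 ± 0.17), a call lost without EGF 1, EGF 2 or EGF plus gefitinib 2, and than in control (0.91 ± 0.17), a call lost without any one of the 6 arrays. Of 4 endothelial markers CDH5 alone was called, lower with EGF (−2.22 ± 0.24) and higher with EGF plus gefitinib than with EGF (2.57 ± 0.24). CDH5 exceeded the limit on 1 control array, 1 EGF plus gefitinib array and no EGF array, so these fitted values are no measure of size. The part of these markers in the results below was not tested. Fewer cells of a kind and less RNA per cell cannot be told apart in such samples.

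Most of these genes were not detected. On all 6 arrays 89 of the 106 lay at or below the limit (84.0%, beside 55.3% of all transcript probe sets), and 11 lay above it on all 6 (10.4%, beside 35.6%). Those 11 were the chemokines CCL5 and CXCL16, the cytokine IL18, and the receptor chains IL4R, IL15RA, IL13RA1, IL6ST, IL10RB, IL20RB, IL17RA and IL17RC. A further 6 lay above the limit on some arrays (CCL22, CXCL17, IL32, IL6R, IL27RA and IL7R). Receptors were thus above the limit on all 6 arrays in 8 of 38 cases, chemokines in 2 of 32 and interleukins in 1 of 36. None of the 6 CXC chemokines with the ELR motif before the first cysteines, the neutrophil attractants, exceeded the limit on any array, and neither did any of the 6 IL17 family cytokines, the 6 IL10 family cytokines, the 7 cytokines of the IL6 and IL12 families or the 8 of the common gamma chain and type 2 groups. A level at or below the limit is a bound, not an absence.

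**Figure D1:**
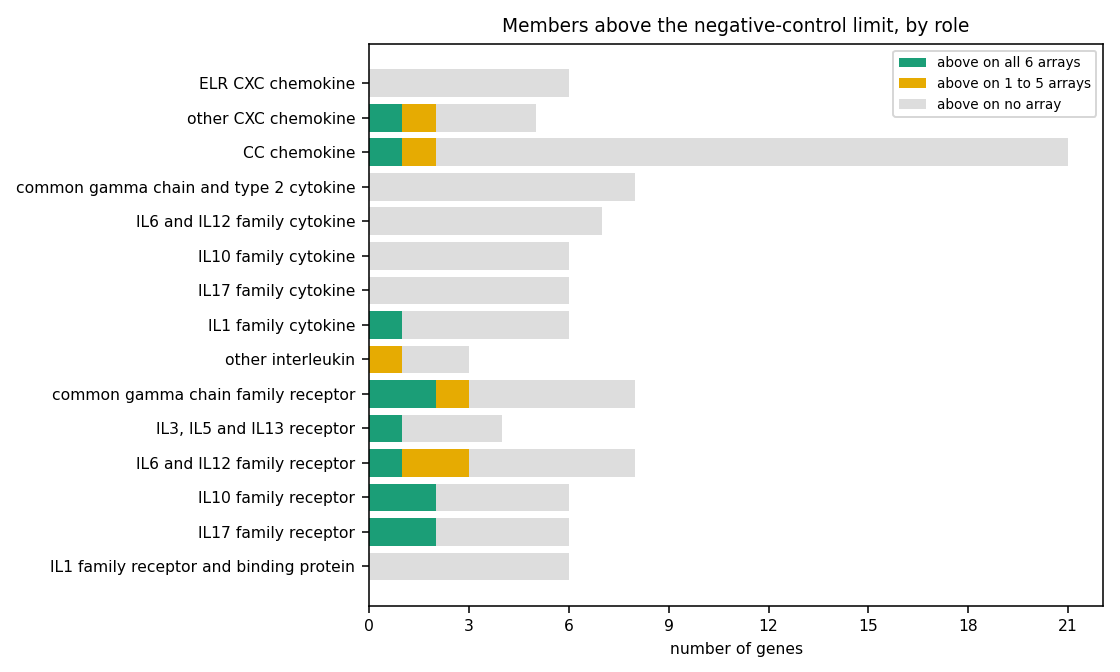
Number of genes (horizontal axis) in each of 15 role groups (rows), split by how many of the 6 arrays exceeded the 95th percentile of the negative controls. Green marks genes above it on all 6 arrays (11 in total), yellow on 1 to 5 arrays (6) and grey on no array (89).

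With EGF, limma called 12 of the 106 genes higher and 1 lower at an adjusted p under 0.05, or 12.3% in either direction, beside 11.9% of all 21448 transcript probe sets (6.61% higher and 5.3% lower). With EGF plus gefitinib against EGF it called 5 higher and 12 lower, 16.0% beside 18.7% (8.86% higher and 9.81% lower). With EGF plus gefitinib against control it called 2 higher and 1 lower, 2.83% beside 3.89% (2.19% higher and 1.7% lower). With both directions pooled, the shares of the family called were thus near those of the whole array in each comparison. By direction they were less alike, with 12 of 106 higher with EGF beside 6.61% and 1 of 106 lower beside 5.3%, a difference that was not tested. The median log2 difference of the 106 genes was 0.07, −0.01 and 0.04 in the 3 comparisons, beside −0.03, 0.05 and 0.01 over all transcript probe sets. Receptors and binding proteins contributed 7 of the 12 genes called higher with EGF and the 1 called lower (21.1% of 38, beside 11.9% of all transcript probe sets). That difference in share was not tested. Of those 7, 3 lay above the limit on both arrays of at least 1 of the groups compared. Of those 12 genes, 8 lay at or below the background limit in both groups, so the sizes of their changes are not known. The count of 12 depended on the arrays, falling to 4 when control 1 or EGF 1 was left out and to 3 when control 2 or EGF 2 was. The count of 5 fell to 2 without control 1, control 2 or EGF plus gefitinib 1, and to 1 without EGF 1, EGF 2 or EGF plus gefitinib 2. The count of 2 for EGF plus gefitinib against control fell to 0 without control 1, control 2 or EGF plus gefitinib 2 and to 1 without EGF plus gefitinib 1, and the count of 1 lower fell to 0 without any one of the 6. Calls that held without each of the 6 arrays in turn were those of IL7R, IL4R and IL20RB for EGF against control. For EGF plus gefitinib against EGF they were those of IL20RB, IL7R, IL4R, CXCL16, CXCL17, IL18R1, IL27RA and IL32. For EGF plus gefitinib against control no call held in all 6. Each pair of these comparisons shares the arrays of 1 group, so their values are given side by side.

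**Figure D2:**
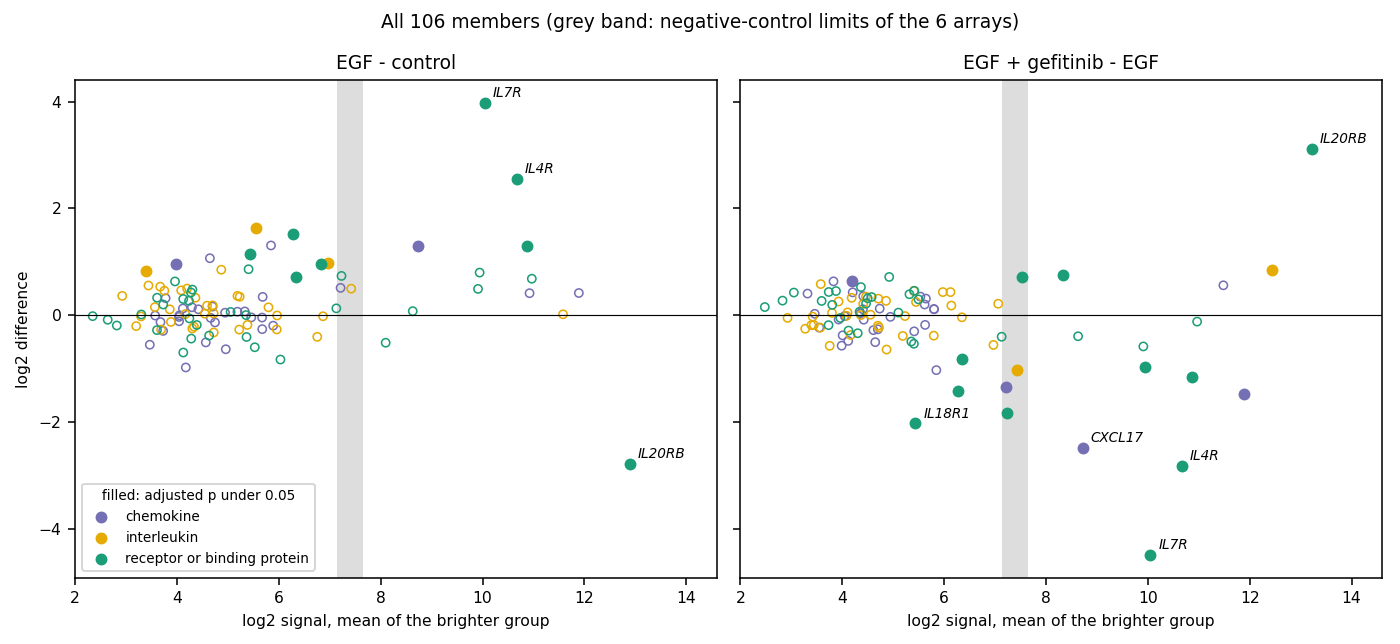
Log2 difference between groups (vertical axis) against the mean log2 signal of the brighter group (horizontal axis) for all 106 genes, one point per gene, coloured by class and filled where the adjusted p was under 0.05. The grey band spans the negative-control limits of the 6 arrays (7.14 to 7.65). IL7R (3.98) and IL4R (2.55) stand highest on the left and IL20RB (−2.79) lowest, and their differences have the opposite sign on the right (−4.50, −2.82 and 3.11).

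Among the receptors of the common gamma chain family, IL7R, IL4R and IL15RA were higher with EGF than in the control and lower when gefitinib was present. IL7R, the receptor chain for IL7 and, in another pairing, for the epithelial cytokine TSLP, measured 6.08 and 6.07 on the control arrays, 10.12 and 9.98 on the EGF arrays and 6.15 and 4.96 on the EGF plus gefitinib arrays. Only the EGF arrays exceeded the background limit. The rise with EGF was at least 6.77-fold (fitted log2 difference 3.98 ± 0.36, adjusted p = 0.00144), and the level with EGF plus gefitinib was at least 5.97-fold below that with EGF (−4.50 ± 0.36, adjusted p = 0.00057). IL4R, the chain that binds IL4 and forms part of the IL4 and IL13 receptors, measured 8.10 and 8.15 in control, 10.79 and 10.56 with EGF and 7.85 and 7.86 with EGF plus gefitinib. All 6 values exceeded the limit, and the EGF arrays stood apart from the other 4. With the 99th percentile of the negative controls as limit, only the EGF arrays exceeded it. The folds given next rest on the 95th. IL4R rose 5.85-fold with EGF (2.55 ± 0.18, adjusted p = 0.000609) and fell 7.07-fold from EGF to EGF plus gefitinib (−2.82 ± 0.18, adjusted p = 0.000264).

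IL15RA, the chain that holds IL15 at the cell surface and presents it to neighbouring cells, measured 9.66 and 9.50 in control, 11.05 and 10.70 with EGF and 9.55 and 9.88 with EGF plus gefitinib. The EGF arrays were again the highest, while the other groups overlapped. IL15RA rose 2.45-fold with EGF (1.29 ± 0.21, adjusted p = 0.0111) and fell 2.23-fold from there with gefitinib (−1.16 ± 0.21, adjusted p = 0.0101). The first call was lost without control 1, control 2 or EGF 1 and the second without EGF 1 or EGF plus gefitinib 1, with log2 differences of 1.12 to 1.47 and −1.33 to −0.99 over the 6 fits that left out 1 array. The 5 other receptors of this family (IL2RA, IL2RB, IL2RG, IL9R and IL21R) lay between 2.28 and 5.94, under the limit on every array, and limma called none of them. The shared chain IL2RG was among them, so the partner chain of IL7R in IL7 binding was not measured above background. Their ligands IL2, IL4, IL7, IL15 and IL21 also lay under it on all 6 arrays. TSLP and its receptor chain CRLF2 stayed at or below the limit too.

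The promoters of the 5 genes that were above the limit in some group and called in opposite directions by the first and second comparison are shown because these genes moved together or, for IL20RB, against the others. The stretches are the 250 bases before the RefSeq gene start in GRCh38.p14, 5′ to 3′ on the gene's strand. Capitals mark matches, on either strand, to a kB motif (GGG, any 2 bases, then TTTCC, here called the longer kB motif, or GGAATTTCC, and GGGAATTTCC holds both), to an AP-1 motif (TGANTCA) or to a STAT motif (TTCNNNGAA), where N is any base.
IL7R (chr5:35856641-35856890, plus strand): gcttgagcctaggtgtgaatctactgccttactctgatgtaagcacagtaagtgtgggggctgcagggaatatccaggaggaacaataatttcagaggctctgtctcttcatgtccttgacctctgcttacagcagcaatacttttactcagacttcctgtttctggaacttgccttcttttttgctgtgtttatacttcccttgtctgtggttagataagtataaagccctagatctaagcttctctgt
IL4R (chr16:27313724-27313973, plus strand): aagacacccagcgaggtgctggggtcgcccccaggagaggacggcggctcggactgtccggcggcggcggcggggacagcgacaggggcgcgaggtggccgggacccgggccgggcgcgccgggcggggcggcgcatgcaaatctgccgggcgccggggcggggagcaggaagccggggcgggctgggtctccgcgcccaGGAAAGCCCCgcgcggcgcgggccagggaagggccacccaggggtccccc
IL15RA (chr10:5978047-5978296, minus strand): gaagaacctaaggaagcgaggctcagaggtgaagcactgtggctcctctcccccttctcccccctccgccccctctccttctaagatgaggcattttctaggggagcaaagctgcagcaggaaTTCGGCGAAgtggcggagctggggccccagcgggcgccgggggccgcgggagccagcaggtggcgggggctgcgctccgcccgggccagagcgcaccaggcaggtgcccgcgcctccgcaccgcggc
CXCL17 (chr19:42442947-42443196, minus strand): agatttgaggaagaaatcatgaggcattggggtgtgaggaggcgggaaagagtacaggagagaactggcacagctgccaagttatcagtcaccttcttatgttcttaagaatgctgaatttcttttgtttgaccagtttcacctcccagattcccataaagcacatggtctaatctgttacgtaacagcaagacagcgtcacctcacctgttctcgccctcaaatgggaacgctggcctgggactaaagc
IL20RB (chr3:136957733-136957982, plus strand): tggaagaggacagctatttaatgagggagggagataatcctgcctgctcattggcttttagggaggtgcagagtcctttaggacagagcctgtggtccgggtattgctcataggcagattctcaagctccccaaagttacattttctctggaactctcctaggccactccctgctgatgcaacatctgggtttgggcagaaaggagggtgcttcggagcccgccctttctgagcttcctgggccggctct
IL4R held 1 kB match (GGAAAGCCCC, the reverse strand of the motif) at position −50 from the start, and IL15RA held 1 STAT match (TTCGGCGAA) at position −127. CXCL17 had an AP-1 match (TGAGTCA) after the start, in the 30-base window chr19:42442899-42442928 on the minus strand.
CXCL17 window: tatcctgaccTGAGTCAtccccagggatca
No letters of these 4 motifs were found in the IL7R and IL20RB windows of 300 bases. The IL4R and IL15RA stretches were rich in G and C (80.8% and 70.4%, with 35 and 20 CG pairs), and the IL7R stretch was not (43.6%, with 0 CG pairs). The median over 27305 promoters was 58.0% with 11 CG pairs. Among the promoters shown, no motif of this set was thus found in all 4 genes higher with EGF and lower with EGF plus gefitinib than with EGF.

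IL20RB was the one gene of the family called lower with EGF. It encodes a chain of the receptors for IL19, IL20 and IL24, which act on keratinocytes. Its probe set measured 12.77 and 13.02 in control, 9.98 and 10.23 with EGF and 13.17 and 13.26 with EGF plus gefitinib. The EGF arrays lay far below the other 4, with no overlap. IL20RB fell 6.93-fold with EGF (−2.79 ± 0.19, adjusted p = 0.000593) and was 8.65-fold higher with EGF plus gefitinib than with EGF (3.11 ± 0.19, adjusted p = 0.000258). With EGF plus gefitinib it differed from control by 0.32 ± 0.19 (adjusted p = 0.395). Of its possible partner chains, IL20RA lay under the background limit on every array and IL22RA1 (6.72 to 7.28) also stayed at or below it. IL10RB, the chain shared by the receptors of IL10, IL22 and IL26, was above the limit on all arrays, at 8.47 and 8.64, then 8.78 and 8.48, then 8.26 and 8.21. It was not called in any comparison (0.08 ± 0.19, −0.39 ± 0.19 and −0.32 ± 0.19, adjusted p = 0.852, 0.207 and 0.388). The ligands IL10, IL19, IL20, IL22, IL24 and IL26 lay between 2.78 and 5.86, all under the limit.

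**Figure D3:**
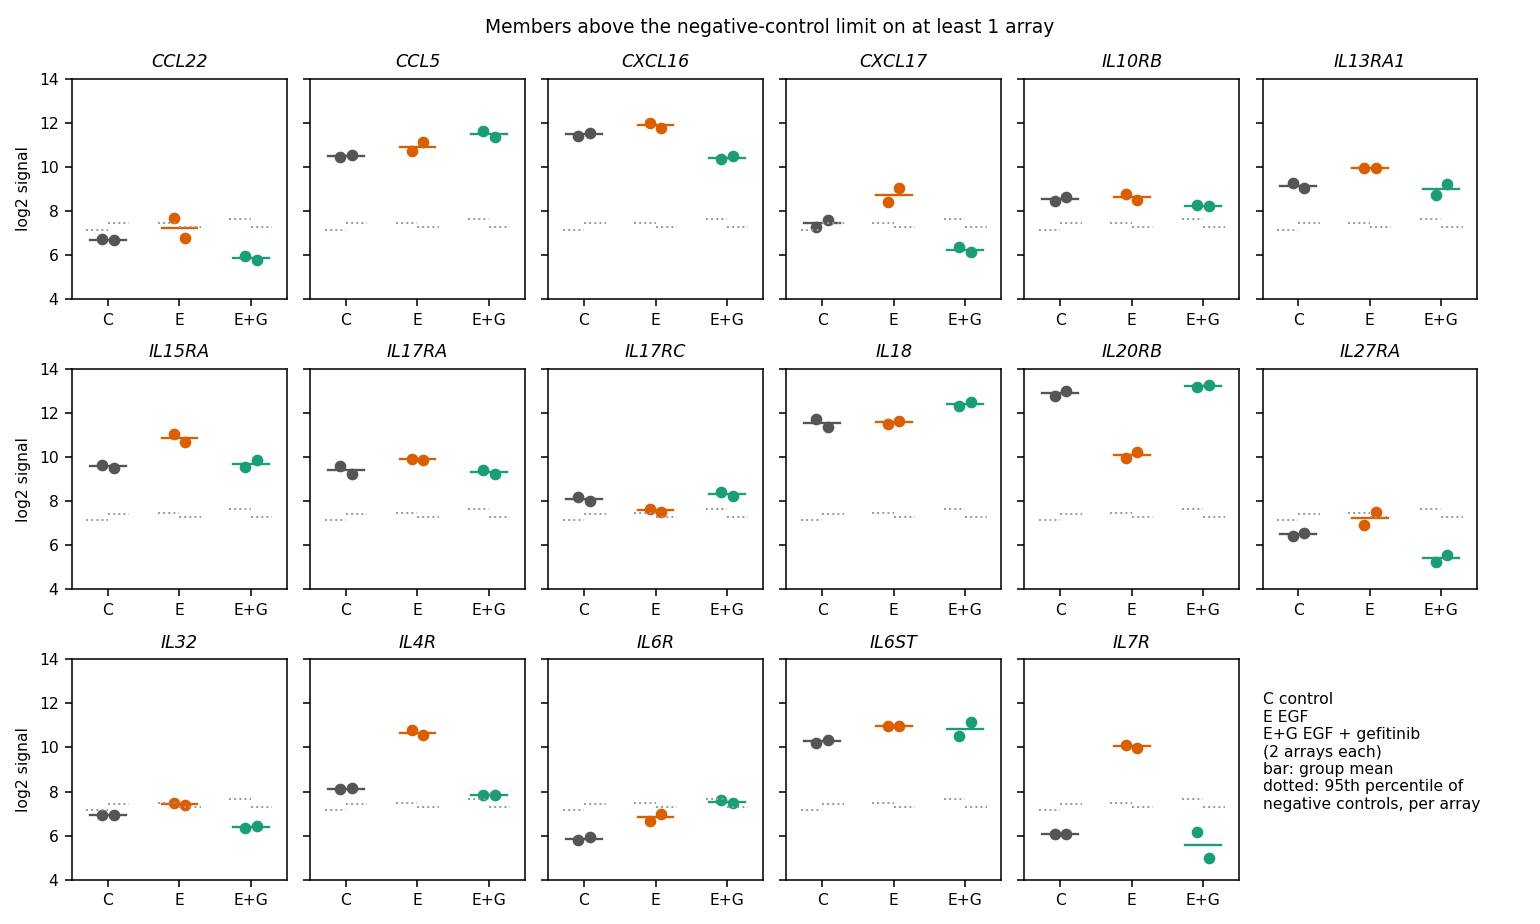
Log2 signal (vertical axis) on each of the 6 arrays for the 17 genes above the background limit on at least 1 array, with 2 points per group (C control, E EGF, E+G EGF plus gefitinib), a bar at the group mean and dotted lines at each array's limit. IL7R, IL4R and IL15RA are highest on the EGF arrays and IL20RB lowest there, while CXCL16 and CXCL17 are lowest with EGF plus gefitinib.

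IL13RA1 pairs with IL4R in the receptor that epithelial cells use for IL4 and IL13. It measured 9.26 and 9.03 in control, 9.93 and 9.95 with EGF and 8.72 and 9.23 with EGF plus gefitinib. The EGF arrays were the highest and the other groups overlapped. The difference of EGF from control was 0.80 ± 0.22 and was not called (adjusted p = 0.0608), while the fall from EGF to EGF plus gefitinib was 1.95-fold (−0.97 ± 0.22, adjusted p = 0.023). That call was lost without EGF 1, EGF 2 or EGF plus gefitinib 1 (log2 differences of −1.22 to −0.71 over the 6 fits). Limma called the rise with EGF without EGF plus gefitinib 1 or without EGF plus gefitinib 2. The decoy receptor IL13RA2, IL3RA, IL5RA and the ligand IL13 lay under the limit on every array.

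IL17RA and IL17RC together form the receptor for IL17A and IL17F, cytokines that drive inflammatory gene expression in keratinocytes. IL17RA measured 9.61 and 9.23 in control, 9.93 and 9.89 with EGF and 9.41 and 9.24 with EGF plus gefitinib. It was not called in any comparison (0.49 ± 0.20, −0.59 ± 0.20 and −0.09 ± 0.20, adjusted p = 0.172, 0.0882 and 0.835). IL17RC measured 8.20 and 7.99 in control, 7.64 and 7.52 with EGF and 8.44 and 8.22 with EGF plus gefitinib, so its EGF arrays were the lowest. The difference of −0.52 ± 0.19 from control was not called (adjusted p = 0.129) except with the filter on dim probe sets. The rise from EGF to EGF plus gefitinib was 1.68-fold (0.75 ± 0.19, adjusted p = 0.0313), a call lost without any one of the 6 arrays (0.64 to 0.86). IL17RB, IL17RD, IL17RE and IL17REL lay between 3.78 and 6.13, under the limit, as did the 6 ligands measured, IL17A, IL17B, IL17C, IL17D, IL17F and IL25.

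The IL6 group was led by its receptors. IL6ST, the signalling chain shared by IL6, IL11, LIF and oncostatin M, measured 10.21 and 10.36 in control, 10.96 and 10.97 with EGF and 10.52 and 11.17 with EGF plus gefitinib. The EGF arrays lay above the controls, but the difference of 0.68 ± 0.24 was not called (adjusted p = 0.122), nor was that of EGF plus gefitinib from control (0.56 ± 0.24, adjusted p = 0.244). IL6R, the chain that binds IL6 itself, measured 5.81 and 5.91 in control, 6.65 and 6.99 with EGF and 7.60 and 7.46 with EGF plus gefitinib. Its 3 groups did not overlap, and its level with gefitinib was above that with EGF alone, unlike that of the other receptors that EGF raised. One of the 2 EGF plus gefitinib arrays exceeded the limit and no other did, so the difference of that group was at least 1.18-fold from control (fitted 1.67 ± 0.19, adjusted p = 0.0123) and at least 1.11-fold from EGF (0.71 ± 0.19, adjusted p = 0.0438). The first of these calls was lost without control 1, control 2, EGF plus gefitinib 1 or EGF plus gefitinib 2 (1.59 to 1.74), and the second without any one of the 6 arrays (0.54 to 0.88). The second was also lost with the replicate number as a block, under the intensity trend with a robust prior and with only the 4 arrays compared. IL6R was also called higher with EGF than in control, under the limit in both groups (0.96 ± 0.19, adjusted p = 0.022), a call lost without any one of the control or EGF arrays (0.79 to 1.13).

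IL6, the inflammatory ligand of this receptor, lay under the limit on every array, at 3.88 and 3.94 in control, 5.39 and 5.69 with EGF and 5.56 and 6.39 with EGF plus gefitinib. Both treated groups stood above the controls and overlapped each other. IL6 was called higher with EGF (1.63 ± 0.29, adjusted p = 0.0139) and with EGF plus gefitinib (2.06 ± 0.29, adjusted p = 0.0175) than in control, and the treated groups differed by 0.43 ± 0.29 (adjusted p = 0.363). The first call was lost without any one of the control or EGF arrays (1.48 to 1.78), the second without control 1, control 2 or EGF plus gefitinib 2 (1.65 to 2.48). IL6 and IL6R were the genes of the family called higher with EGF plus gefitinib than in control. IL11, another ligand of IL6ST, measured 6.84 to 7.15 over the 6 arrays, at or below the limit, with a difference of −0.02 ± 0.17 for EGF (adjusted p = 0.959).

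The other genes called in this group belong to the IL12 family. IL27RA, a chain of the IL27 receptor, measured 6.42 and 6.57 in control, 6.93 and 7.53 with EGF and 5.26 and 5.55 with EGF plus gefitinib. It exceeded the limit on 1 EGF array. The fitted fall from EGF to EGF plus gefitinib was called (−1.82 ± 0.24, adjusted p = 0.0031) in all 6 fits that left out 1 array (−2.12 to −1.52), although no fold can be given. The cytokine subunits IL12B and IL23A, which together make IL23, were called higher with EGF while under the limit (0.83 ± 0.20 and 0.98 ± 0.25, adjusted p = 0.0409 and 0.0476). Their arrays were at 2.41 and 2.71 in control against 3.41 and 3.38 with EGF for IL12B, and at 5.79 and 6.19 against 6.68 and 7.25 for IL23A. The call of IL12B was lost without any one of the control or EGF arrays (0.68 to 0.98) and that of IL23A without any one of the 6 (0.69 to 1.26), and neither was called with the replicate number as a block.

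Genes that act with these receptors, from lists chosen by function, gave the following. Of 19 measured related cytokines and receptors 3 were called higher with EGF and 0 lower (15.8% in either direction, beside 11.9% of all transcript probe sets, with 5 at an unadjusted p under 0.05 and a median log2 difference of −0.06). OSMR, the oncostatin M receptor chain that pairs with IL6ST, rose 5.65-fold with EGF (2.498 ± 0.17, adjusted p = 0.000593) and fell 3.11-fold from there with gefitinib (−1.64 ± 0.17, adjusted p = 0.00124). CSF1, the macrophage growth factor, rose 4.21-fold (2.08 ± 0.18, adjusted p = 0.00139) and fell 3.39-fold (−1.76 ± 0.18, adjusted p = 0.00122). LIF, a ligand of IL6ST, was called higher with EGF under the limit (1.45 ± 0.33, adjusted p = 0.0308), a call lost without any one of the control or EGF arrays (1.11 to 1.80). With EGF plus gefitinib OSMR was still above control (0.86 ± 0.17, adjusted p = 0.043), a call lost without any one of the 6 arrays (0.79 to 0.93). Of 9 measured JAK and STAT genes, 1 was called higher and 1 lower with EGF (22.2%, beside 11.9% of all transcript probe sets, median 0.03). STAT3, which IL6ST activates, rose 1.80-fold (0.85 ± 0.17, adjusted p = 0.0206), and STAT4 was called lower under the limit (−1.12 ± 0.21, adjusted p = 0.016). Both calls were lost without any one of the control or EGF arrays. In EGF plus gefitinib against EGF 0 of the 9 were called higher and 2 lower (22.2%, beside 18.7%), STAT3 (−0.77 ± 0.17, adjusted p = 0.0197, lost without any one of the arrays compared) and STAT6. STAT6, the factor that IL4R activates, differed from control by −0.38 ± 0.17 with EGF (adjusted p = 0.215) and fell 1.69-fold from EGF to EGF plus gefitinib (−0.76 ± 0.17, adjusted p = 0.0224) and was 2.20-fold lower with EGF plus gefitinib than in control (−1.14 ± 0.17, adjusted p = 0.0219). The first of these 2 STAT6 calls was lost without any one of the EGF or EGF plus gefitinib arrays (−0.79 to −0.73) and the second without any one of the 6 (−1.22 to −1.06).

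In the IL1 family, the cytokine IL18 was bright on every array and its receptor chains were not. IL18, a cytokine that epithelial cells store as a precursor, measured 11.74 and 11.39 in control, 11.51 and 11.65 with EGF and 12.34 and 12.52 with EGF plus gefitinib. The control and EGF arrays overlapped and both EGF plus gefitinib arrays lay above them. IL18 differed by 0.02 ± 0.20 with EGF (adjusted p = 0.972) and was 1.80-fold higher with EGF plus gefitinib than with EGF (0.85 ± 0.20, adjusted p = 0.0252), a call lost without any one of the EGF or EGF plus gefitinib arrays (0.76 to 0.94). Against control the difference was 0.87 ± 0.20 (adjusted p = 0.0611), and it was called under the same 3 alternatives as for CCL5 below.

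IL18R1, the chain that binds IL18, IL18BP, a soluble inhibitor of IL18, and IL1RL2, the receptor of the IL36 cytokines, lay under the limit on every array, as did IL18RAP, IL1RAPL1 and IL1RAPL2. IL18R1 measured 3.95 and 4.64 in control, 5.20 and 5.67 with EGF and 3.35 and 3.47 with EGF plus gefitinib. IL1RL2 measured 5.00059 and 4.50, then 6.09 and 6.47, then 5.08 and 4.63, and IL18BP 5.53 and 5.74, then 6.33 and 6.35, then 5.54 and 5.51. In all 3 the EGF arrays were the highest, all under the limit. Limma called them higher with EGF (1.14 ± 0.28, 1.53 ± 0.26 and 0.71 ± 0.17 for IL18R1, IL1RL2 and IL18BP, adjusted p = 0.0404, 0.0127 and 0.0423) and lower with EGF plus gefitinib than with EGF (−2.03 ± 0.28, −1.42 ± 0.26 and −0.82 ± 0.17, adjusted p = 0.00331, 0.0101 and 0.0178). The first set of calls was lost for IL18BP without any one of the 6 arrays, for IL18R1 without each array but control 2, and for IL1RL2 without control 2 or EGF 2. In the second set that of IL18R1 held throughout, that of IL1RL2 was lost without EGF 2 or EGF plus gefitinib 2 and that of IL18BP without any one of the EGF or EGF plus gefitinib arrays. The cytokines IL36A, IL36B, IL36RN, IL37 and IL1F10 lay under the limit on every array.

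**Figure D4:**
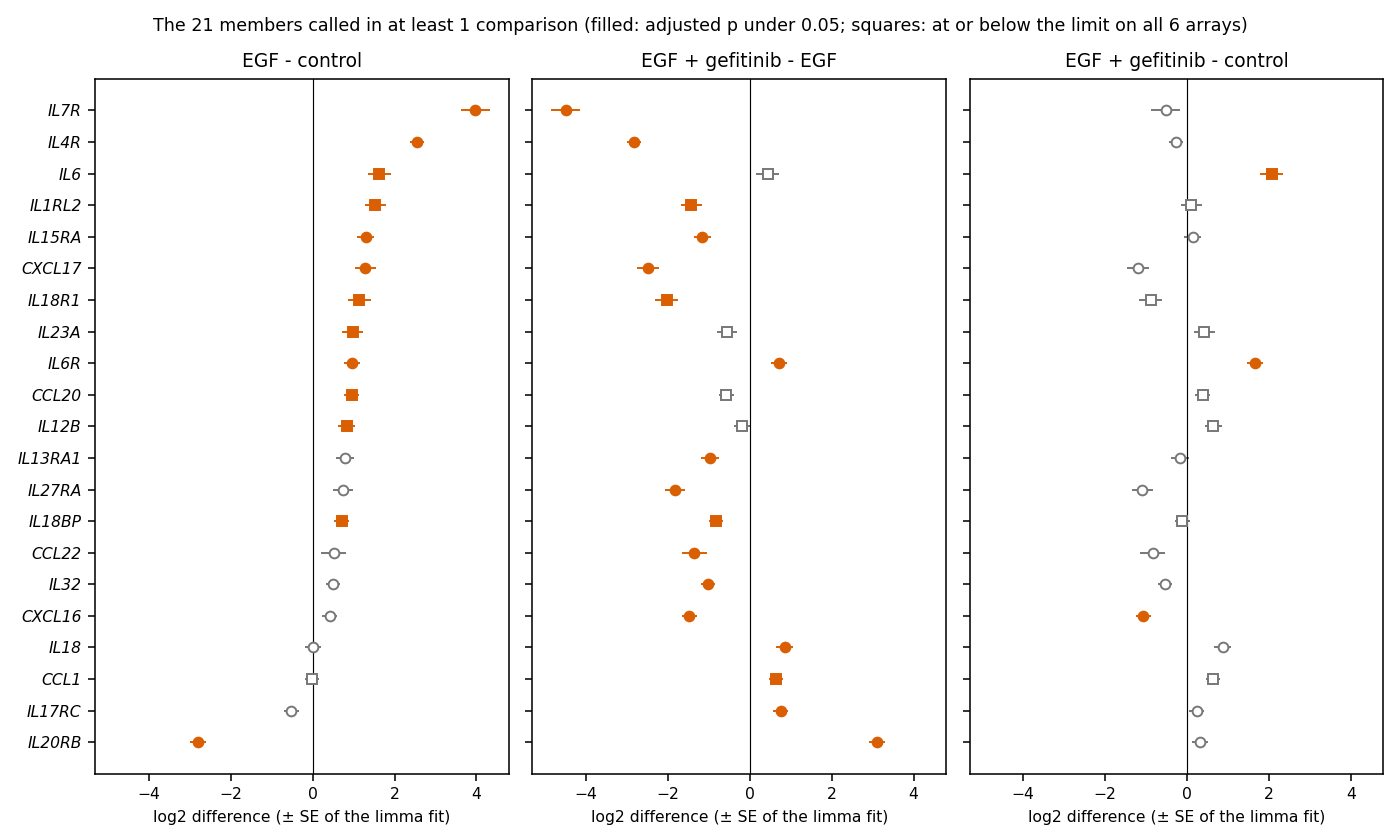
Log2 difference (horizontal axis, with bars of ± 1 standard error from limma, 2 arrays in each group) for the 21 genes called in at least 1 of the 3 comparisons, ordered by the difference of EGF from control. Filled orange symbols mark an adjusted p under 0.05, and squares mark genes at or below the background limit on all 6 arrays, whose sizes are not known. In the panel of EGF plus gefitinib against control 3 genes are filled, IL6 (2.06), IL6R (1.67) and CXCL16 (−1.06).

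Among the chemokines, CXCL16 and CXCL17 were lower with EGF plus gefitinib than with EGF, and CCL5 was bright but not called. CXCL16, a membrane-bound chemokine that is shed from the cell surface and also acts as a scavenger receptor, measured 11.43 and 11.53 in control, 12.01 and 11.77 with EGF and 10.35 and 10.48 with EGF plus gefitinib. The 3 groups did not overlap, and the EGF plus gefitinib arrays were lowest. It fell 2.79-fold from EGF to EGF plus gefitinib (−1.48 ± 0.18, adjusted p = 0.00229) and was 2.09-fold below control (−1.06 ± 0.18, adjusted p = 0.0309), a call lost without any one of the 6 arrays (−1.13 to −1.0003) and with the replicate number as a block. The difference of EGF from control, 0.41 ± 0.18, was not called (adjusted p = 0.204). CXCL17, a chemokine of mucosal epithelia, measured 7.27 and 7.61 in control, 8.40 and 9.06 with EGF and 6.34 and 6.14 with EGF plus gefitinib. It rose 2.44-fold with EGF (1.29 ± 0.26, adjusted p = 0.0224) and was at least 2.39-fold lower with EGF plus gefitinib than with EGF (−2.49 ± 0.26, adjusted p = 0.00126). The rise was not called without control 1, control 2 or EGF 2 (0.96 to 1.62 over the 6 fits). The difference of EGF plus gefitinib from control, −1.20 ± 0.26, had an adjusted p = 0.0543. CXCL12, CXCL13 and CXCL14 lay under the limit on every array.

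CCL5, an attractant of T cells and monocytes, measured 10.47 and 10.55 in control, 10.72 and 11.12 with EGF and 11.62 and 11.34 with EGF plus gefitinib. The groups did not overlap, with the highest level under gefitinib, but no difference was called (0.41 ± 0.21, 0.56 ± 0.21 and 0.97 ± 0.21, adjusted p = 0.275, 0.117 and 0.0541). CCL5 was called higher with EGF plus gefitinib than in control under quantile normalization, under the intensity trend with a robust prior and with the filter on dim probe sets, and higher than with EGF under the last pair of these. CCL22 exceeded the limit on 1 EGF array, with 6.73 and 6.67 in control, 7.67 and 6.75 with EGF and 5.94 and 5.78 with EGF plus gefitinib. Its fall from EGF to EGF plus gefitinib was called (−1.35 ± 0.30, adjusted p = 0.02), but not without EGF 1 (the array above the limit), EGF plus gefitinib 1 or EGF plus gefitinib 2 (−1.81 to −0.89). CCL20, which attracts cells bearing CCR6, was called higher with EGF well under the limit (3.01 and 3.06 against 3.87 and 4.10, 0.95 ± 0.18, adjusted p = 0.0171), and the call was lost without any one of the control or EGF arrays (0.84 to 1.07). CCL1 was called higher with EGF plus gefitinib than with EGF, also under the limit (0.63 ± 0.17, adjusted p = 0.0449). The call of CCL1 was lost without any one of the 6 arrays (0.54 to 0.73) and under each of the 4 other settings it was run with. The remaining CC chemokines stayed at or below the limit on every array and limma called none of them. Among them were CCL2, CCL7, CCL27 and CCL28, of which the last pair are known as epithelial chemokines.

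The ELR chemokines, which neutrophils follow through CXCR1 and CXCR2, lay between 3.46 and 6.07 on all arrays. CXCL8 measured 4.32 and 4.76 in control, 5.62 and 6.07 with EGF and 4.22 and 5.42 with EGF plus gefitinib. Its EGF arrays were the highest of the 6, and the difference of 1.31 ± 0.39 had an adjusted p = 0.0794. It was called without EGF plus gefitinib 1 or 2 and with the replicate number as a block. CXCL1 measured 3.48 and 3.68, then 4.12 and 5.18, then 4.51 and 3.77, a difference of 1.07 ± 0.38 with EGF (adjusted p = 0.127). CXCL2 and CXCL3 differed by −0.04 ± 0.29 and 0.32 ± 0.26 (adjusted p = 0.951 and 0.5). CXCL1, CXCL2 and CXCL3 are near-identical paralogs, so the split of signal between them is uncertain. Limma called 0 of the 6 ELR chemokines in any comparison, beside 11.9%, 18.7% and 3.89% of all transcript probe sets in the 3 comparisons. In turn 2, 1 and 1 of the 6 had an unadjusted p under 0.05 in limma. The share of all probe sets under that level is not given here. On the GRCh38.p14 gene order CXCL5, CXCL3 and CXCL2 are direct neighbours, as are CXCL8 and CXCL6.

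The kB motif in the promoters of these chemokines is shown because the same letters stood before genes that were called and genes that stayed under the background limit. A promoter was matched for 83 of the 106 genes. The longer kB motif was found in 11 of the 83 (13.3%) and in 1.92% of 27305 promoters of the same length (250 bases before the start and 50 after it), and GGAATTTCC in 7 (8.43%) beside 0.472%. The windows are 30 bases of RefSeq sequence from GRCh38.p14, 5′ to 3′ on the gene's strand, with the match in capitals.
CXCL1 (chr4:73869304-73869333, plus strand): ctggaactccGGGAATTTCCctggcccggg
CXCL2 (chr4:74099254-74099283, minus strand): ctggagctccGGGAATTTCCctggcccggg
CXCL3 (chr4:74038749-74038778, minus strand): ctggagctccGGGAATTTCCctggcccggc
CXCL5 (chr4:73998749-73998778, minus strand): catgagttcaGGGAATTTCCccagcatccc
CXCL6 (chr4:73836578-73836607, plus strand): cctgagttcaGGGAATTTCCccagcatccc
CXCL8 (chr4:73740468-73740497, plus strand): tgcaaatcgtGGAATTTCCtctgacataat
IL6 (chr7:22727117-22727146, plus strand): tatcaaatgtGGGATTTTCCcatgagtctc
CCL20 (chr2:227813753-227813782, plus strand): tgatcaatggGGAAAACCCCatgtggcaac
IL4R (chr16:27313914-27313943, plus strand): tccgcgcccaGGAAAGCCCCgcgcggcgcg
IL32 (chr16:3065294-3065323, plus strand): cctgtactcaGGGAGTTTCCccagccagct
IL27RA (chr19:14031684-14031713, plus strand): gccccagccgGGGACTTTCCgtcgcgggga
CXCL1, CXCL2, CXCL3, CXCL5 and CXCL6 shared the match GGGAATTTCC, and CXCL8 held GGAATTTCC. The 11 genes with the longer motif were those shown other than CXCL8, and IL1RAPL1, whose window is not shown. IL1RAPL1 lay under the limit on every array and was not called. Neither was IL18RAP, which held GGAATTTCC. Of the 11 genes with the longer motif 3 were called higher with EGF (CCL20, IL6 and IL4R) (beside 6.61% of all transcript probe sets) and 3 lower with EGF plus gefitinib than with EGF (IL32, IL4R and IL27RA, beside 9.81%). Of the first 3, the calls of CCL20 and IL6 were lost without any one of the control or EGF arrays. Numbers this small are given as a description. The AP-1 motif TGANTCA was found in 14 of the 83 (16.9%) beside 7.76% of all promoters, and the STAT motif TTCNNNGAA in 11 (13.3%) beside 7.88%. A match is a run of letters and not a binding site.

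Chemokine receptors were mostly under the limit. Of 22 on the list 20 were measured, and 19 of these lay at or below it on every array, among them CXCR1, CXCR2, CXCR3, CXCR4, CXCR6, CCR4, CCR6, CCR8 and CCR10. The exception was ACKR3, an atypical receptor that takes up CXCL11 and CXCL12. ACKR3 measured 14.27 and 14.32 in control, 12.11 and 12.04 with EGF and 14.04 and 13.95 with EGF plus gefitinib, so its EGF arrays were the lowest. It fell 4.67-fold with EGF (−2.22 ± 0.17, adjusted p = 0.000839) and was 3.78-fold higher with EGF plus gefitinib than with EGF (1.92 ± 0.17, adjusted p = 0.000734). Of the 20, limma called 0 higher and 2 lower with EGF (10.0%, beside 11.9% of all transcript probe sets) and 3 higher and 0 lower with EGF plus gefitinib against EGF (15.0%, beside 18.7%). The calls of CXCR2 (0.71 ± 0.20) and CCR9 (0.62 ± 0.17) in the latter comparison, both under the limit, were lost without any one of the 6 arrays, which leaves ACKR3. CXCR2 was the other one lower with EGF, under the limit (−1.56 ± 0.20, adjusted p = 0.00462). The median log2 differences of the list were −0.12 and 0.06.

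Of the 3 remaining interleukins, IL32, an intracellular inflammatory factor, was the one that reached the limit. It measured 6.93 and 6.92 in control, 7.46 and 7.38 with EGF and 6.34 and 6.44 with EGF plus gefitinib. Only the EGF arrays exceeded the limit, and by little. The fall from EGF to EGF plus gefitinib was called (fitted −1.03 ± 0.17, adjusted p = 0.00661), with no fold given because the EGF mean lay under the mean of the limits of the EGF plus gefitinib arrays. The difference of EGF from control was 0.50 ± 0.17 (adjusted p = 0.111). IL34, a ligand of the CSF1 receptor, and IL16 stayed under the limit and were not called.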

How the data were processed

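Whole-transcript expression arrays were run on RNA from A431 cells, 1 array for each of 6 samples. The values used are the authors' deposited log2 signals per probe set. Per the submitters' processing notes they were made with Transcriptome Analysis Console. Neither its version nor how it corrected background and normalized the arrays was stated. Probe sets were named through GEO's platform annotation (17709 with 1 gene symbol). Control probe sets (612 negative, 2197 positive, 63 ERCC, 8 other spikes and 23 background) were left out of the fit. The background limit of an array was the 95th percentile of its negative controls.

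Group means were fitted to all 6 arrays and 21448 transcript probe sets in limma 3.58.1 (lmFit and eBayes, R 4.3.3), with 3 residual degrees of freedom and Benjamini-Hochberg adjustment over all probe sets. A gene was called at an adjusted p under 0.05. Errors after ± are standard errors of the fit, n = 2 arrays a group. Where the dimmer group lay at or below the limit on both arrays, a fold is a lower bound. It sets the mean log2 signal of the brighter group against the mean of the limits of the dimmer group's arrays. Fitted differences of such genes depend on background signal and are no measure of size. The number of arrays limits the precision. On simulated data the fit recovered 14.9%, 61.2% and 92.4% of log2 changes of 1, 2 and 3 for EGF against control. The simulation changed 200 of 21448 probe sets, whereas 2554 were called in the real comparison. With fewer changed the Benjamini-Hochberg threshold is stricter, so these shares are not the recovery rates of the data.

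Genes were named by rule: IL7R, CXCL1, CXCL2, CXCL3, CXCL8, IL6, CCL20 and IL11 in any case, the called genes (up to 12 a direction), and those above the limit in a group. The genes, gene lists and rules were chosen with earlier results of these data known. Replicate numbers of the groups did not pair the samples (correlations of deviations of −0.0410, 0.0213 and −0.00354). Promoters were RefSeq's for GRCh38.p14, found for 83 of the 106 genes. Alternatives were each array left out, a replicate block, a filter on dim probe sets, quantile normalization, an intensity trend with a robust prior, a fit to the 4 arrays compared and a 99th percentile limit.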

Additional observations from a re-analysis of the deposited data

How the results depend on the processing

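Leaving out 1 array leaves a group with a lone array, which is then assumed to vary like the others. Over these 6 fits, EGF against control gave 3 to 11 genes higher and 1 to 2 lower, EGF plus gefitinib against EGF 1 to 2 higher and 8 to 12 lower, and EGF plus gefitinib against control 0 to 2 higher and 0 to 0 lower (6 to 9 lower at an unadjusted p under 0.05 in limma). With the replicate number as a replicate block, EGF plus gefitinib against EGF gave 3 genes higher in place of 5 and EGF plus gefitinib against control 0 lower (8 at an unadjusted p under 0.05). The block also took away the calls of IL12B, IL18BP and IL23A with EGF and gave one to CXCL8. With only probe sets above the limit on at least 2 arrays, 2 genes were lower with EGF and 3 with EGF plus gefitinib against control. Under quantile normalization the latter comparison gave 4 higher and 3 lower, and under the intensity trend with a robust prior 4 and 3. With only the 4 arrays compared it gave 0 lower (9 at an unadjusted p under 0.05), and EGF plus gefitinib against EGF 2 higher. With the 99th percentile as limit 5, 6 and 5 genes lay above it on both arrays of control, EGF and EGF plus gefitinib, in place of 12, 14 and 11. Calls gained with the filter on dim probe sets were IL13RA1, IL17RA, IL32 and IL6ST higher and IL17RC lower with EGF, CCL5 higher and IL17RA lower with EGF plus gefitinib than with EGF, and CCL5 and IL18 higher and CXCL17 and IL32 lower than in control. The intensity trend gave EGF calls to CXCL8, IL13RA1 and IL6ST and the same pair against EGF, and, like quantile normalization, calls against control to CCL5, IL18, CXCL17 and IL27RA. It took away the EGF call of IL18BP and the calls of CCL1 and IL6R against EGF. Quantile normalization took away that of CCL1. The fit to the 4 arrays compared gave EGF calls to CXCL8 and IL13RA1. It took away those of IL18BP, IL18R1 and IL23A, and the calls of CCL1, IL17RC and IL6R against EGF. IL4R, IL7R and IL20RB kept their calls in the first and second comparison under each setting run. IL7R and IL32 passed the filter on dim probe sets only through their EGF arrays, where they were highest. That filter is therefore no check on the calls of IL7R and no support for the EGF call gained by IL32. Signs turned in uncalled differences. For EGF against control CXCL2 spanned −0.33 to 0.25 over the fits without 1 array (0.24 without control 2, 0.25 without EGF 2) and was 0.0274 under quantile normalization, and IL11 spanned −0.0644 to 0.0235 (0.0048 without control 2, 0.0235 without EGF 2) and was 0.0085. For EGF plus gefitinib against EGF CXCL2 spanned −0.0870 (without EGF 2) to 0.49, with −0.02 without EGF plus gefitinib 2, and CXCL1 −1.03 to 0.0239 (without EGF 2). For EGF plus gefitinib against control CXCL2 spanned −0.13 (without control 1) to 0.44, with −0.07 without EGF plus gefitinib 2, CXCL8 −0.32 (without EGF plus gefitinib 2) to 0.88 and IL7R −1.11 to 0.0733 (without EGF plus gefitinib 2). Of 537 comparisons of a named gene's value with an alternative, 410 kept direction and side of the threshold, 107 lost a call, 7 gained one and 13 turned sign. Where no reason is given, the cause was not tested.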
